A study of Mus musculus with 6 samples.

Results

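The superfamilies of TNF and of its receptors were examined in basophils grown from mouse bone marrow (BMBAs) and given PBS or IL-3. The members were the rows of the count table whose symbol begins with Tnfsf or Tnfrsf and goes on with a number, together with Tnf, Lta, Ltb, Ltbr, Fas, Fasl, Cd27, Cd40lg and Eda2r. This rule found 40 of the 37043 symbols, namely 16 ligands, 23 receptors and the antisense RNA Tnfsf13os, which encodes neither. BMBAs came from C57BL/6J wild-type marrow kept for 7 days with 0.3 ng/mL of a cytokine that the methods give as IL-3, after which CD49b-bearing cells were enriched on beads. The 3 cultures of the IL-3 group received 10 ng/mL IL-3 for 6 h and the 3 cultures of the PBS group received PBS for the same time, and both groups had thus been raised in IL-3. Whether IL-3 remained in the medium of the PBS group is not stated, nor is it stated that the cultures came from separate mice, so that p-values measure the spread between these 6 libraries. Bead enrichment leaves other cells of the culture in the sample, and in bulk RNA fewer cells of a type and less RNA per cell cannot be told apart.

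TNF superfamily ligands are mostly made as membrane proteins that can be shed, and they act as trimers that cluster their receptors. Receptors with a death domain can recruit FADD and caspase-8 or, through TRADD, RIPK1, whereas the others bind TRAF adaptors that lead to NF-kB and MAP kinases, and decoy receptors bind ligand without signalling. In haematopoietic cells the family is known for inflammation, costimulation of lymphocytes and control of survival.

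Library totals ranged from 10537540 to 13999287 counts, and 0 counts in a library still allowed 3 counts, or 0.233 to 0.296 CPM (counts scaled by TMM to a common library size), a limit that covers counting error only. The labelled cell type was checked with 8 basophil markers, which summed to 10250 to 11440 CPM in PBS and 15300 to 15490 CPM in IL-3, with 6 higher, 1 lower and none at 0. The 10 markers of monocytes and macrophages, given further below, summed to more in PBS, 11840 to 12780 CPM, and to less in IL-3, 6183 to 6817 CPM. In PBS Lyz2 alone averaged 10456 CPM of that sum. Of the 40 members, 37 had at least 1 count and 26 passed the filter on low counts, 24 of them in all libraries of both groups. Cd27 passed only because of the PBS libraries, and Tnfrsf13c reached the minimum in all libraries of neither group. Called genes had adjusted p values under 0.05 by the quasi-likelihood test of edgeR. Among the 26 tested members 19 were called, 9 being higher with IL-3 and 10 lower, against 38.2% called among all 16675 genes tested, or 18% higher and 20.2% lower. The lower calls include Cd27, which is no support because the group in which it was high let it pass, and among the 24 members at the minimum in all libraries 9 were higher and 9 lower. The groups did not overlap in 20 of the 26 members, which held for 48.2% of all genes tested. The median log2 fold change of the tested members was -0.02, beside -0.003 for all genes, and the median size was 0.86 beside 0.29. By their point estimates 651 of all 16675 genes tested were called and more than 2-fold higher and 947 called and more than 2-fold lower. Among the called members 8 were more than 2-fold higher and 3, Cd27 included, more than 2-fold lower. Of these 11, Tnfsf9, Cd27 and Tnfrsf25 did not pass a test against a fold of 1.5 (edgeR adjusted p 0.0788, 0.183 and 0.180).

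The sequences around RefSeq starts of the members were looked at for letters that STAT and NF-kB proteins are known to favour. These were chosen since IL-3 signals through STAT5 and TNF receptors through NF-kB. Windows of 300 bases, 250 before and 50 after a RefSeq start (GRCm38.p6), were found for 31 of the 40 members. The motif TTCNNNGAA, which reads the same on both strands, occurred in the windows of 2 of the 6 members called higher that had a window and in 4 of the 9 called lower, beside 9.55% of all 27025 genes with a window. Members not called had it in 1 of 6 and members not tested in 1 of 10. Among all genes with a window it occurred in 10.2% of those called higher and 7.95% of those called lower. The NF-kB consensus, searched on both strands, occurred in 1 of the 6 and 2 of the 9, beside 9.55% of all genes. It occurred in 0 of 6 members not called and 1 of 10 not tested, and in 11.1% of all genes called higher and 12.5% called lower. The windows below belong to the 3 tested members with the largest rises that had a window, to Tnf, and to Tnfrsf1b, the receptor whose transcript led in PBS-treated BMBAs. Capitals mark matches, and matches to the 2 motifs did not overlap each other. Tnfrsf9 is shown at the later of its 2 starts, and its earlier start had no match.
Tnfsf14, chr17:57194132-57194431, minus strand: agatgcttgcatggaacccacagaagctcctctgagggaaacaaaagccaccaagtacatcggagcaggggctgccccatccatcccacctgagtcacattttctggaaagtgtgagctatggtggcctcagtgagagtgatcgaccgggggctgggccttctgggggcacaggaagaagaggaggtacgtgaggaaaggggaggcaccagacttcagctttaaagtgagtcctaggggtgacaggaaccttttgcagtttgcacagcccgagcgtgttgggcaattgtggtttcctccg
Tnfrsf18, chr4:156026072-156026371, plus strand: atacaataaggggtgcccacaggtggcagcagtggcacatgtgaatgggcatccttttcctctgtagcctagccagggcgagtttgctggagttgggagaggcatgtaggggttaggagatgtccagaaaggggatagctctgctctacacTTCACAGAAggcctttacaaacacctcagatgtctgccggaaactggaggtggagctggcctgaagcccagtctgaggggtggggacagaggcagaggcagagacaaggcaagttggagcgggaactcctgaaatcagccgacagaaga
Tnfrsf9, chr4:150927749-150928048, plus strand: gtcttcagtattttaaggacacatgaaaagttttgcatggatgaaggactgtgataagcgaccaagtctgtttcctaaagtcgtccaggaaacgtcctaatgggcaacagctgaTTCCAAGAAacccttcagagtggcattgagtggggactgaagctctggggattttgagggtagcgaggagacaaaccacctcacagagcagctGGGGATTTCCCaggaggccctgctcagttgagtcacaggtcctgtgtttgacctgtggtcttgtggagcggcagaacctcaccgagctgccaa
Tnf, chr17:35201958-35202257, minus strand: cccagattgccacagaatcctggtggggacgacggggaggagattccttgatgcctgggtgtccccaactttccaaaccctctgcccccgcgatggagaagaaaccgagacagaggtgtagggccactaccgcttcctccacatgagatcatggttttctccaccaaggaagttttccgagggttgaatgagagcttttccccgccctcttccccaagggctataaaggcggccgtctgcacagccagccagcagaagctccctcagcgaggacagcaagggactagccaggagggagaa
Tnfrsf1b, chr4:145246821-145247120, minus strand: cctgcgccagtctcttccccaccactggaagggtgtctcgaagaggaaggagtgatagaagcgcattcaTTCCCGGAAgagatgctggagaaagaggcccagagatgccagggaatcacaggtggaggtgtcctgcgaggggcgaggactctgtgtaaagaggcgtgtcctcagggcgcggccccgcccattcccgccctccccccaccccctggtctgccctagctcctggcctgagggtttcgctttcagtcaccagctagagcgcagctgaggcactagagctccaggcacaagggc
Tnfrsf18 had TTCACAGAA 99 bases before its RefSeq start and Tnfrsf1b had TTCCCGGAA 181 bases before its RefSeq start. Tnfrsf9 had TTCCAAGAA 136 bases before the RefSeq start shown. From 43 bases before that start it had a run that holds 2 overlapping matches to the NF-kB consensus. The annotation GENCODE M21 (GRCm38) begins Tnfrsf18 at 156026164 and Tnfrsf9 at 150914562, so the matches of both lie inside the genes as annotated there. No match lay in the windows of Tnfsf14 and Tnf. A match of letters is a description of these windows and not a binding site.

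The ligands that rose were Tnfsf14, Tnf and Tnfsf9. Tnfsf14 encodes LIGHT, a ligand of HVEM and of the lymphotoxin beta receptor that costimulates T cells. It stood at 20.6, 25.3 and 21.8 CPM in PBS replicates 1, 2 and 3 and at 110.1, 117.9 and 110.3 CPM in the IL-3 replicates. All IL-3 libraries lay far above all PBS libraries, and the log2 fold change of 2.32 (SE 0.0802, edgeR adjusted p 2.01e-12) was the highest of the 26 tested members. Tnf, the inflammatory cytokine after which the family is named, had 10.6, 9.12 and 12.3 CPM in PBS and 30.1, 36.7 and 29.8 CPM in IL-3. Its groups were well apart, with means of 10.7 ± 1.61 and 32.2 ± 3.92 CPM (here and below SD, n = 3), and the log2 fold change was 1.59 (edgeR adjusted p 8.64e-08). Tnfsf9, the ligand of the costimulatory receptor CD137, had 1.39, 2.89 and 2.64 CPM in PBS against 5.43, 5.75 and 4.03 CPM in IL-3. PBS replicate 1 was the lowest and the groups did not overlap (log2 fold change 1.13, SE 0.270, edgeR adjusted p 0.00345).

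**Figure D1:**
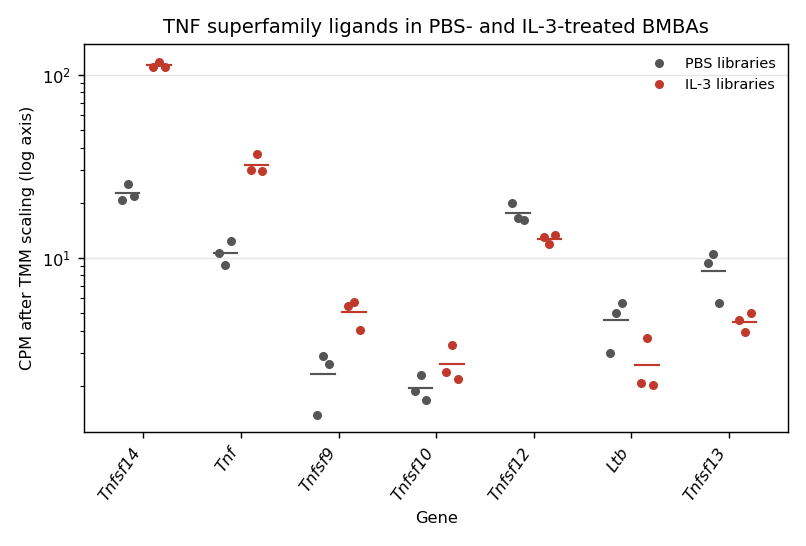
CPM after TMM scaling (log axis) of the 7 tested TNF superfamily ligands in each library, with grey points for PBS, red points for IL-3 and a line at each group's mean. The IL-3 points lie above all PBS points for Tnfsf14, Tnf and Tnfsf9 and below them for Tnfsf12 and Tnfsf13. For Tnfsf10 and Ltb the ranges of the groups overlap in part.

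Tnfsf12, Tnfsf13 and Ltb were called lower. Tnfsf12 encodes TWEAK, the ligand of Fn14, and had 19.8, 16.5 and 16.1 CPM in PBS and 12.9, 11.9 and 13.3 CPM in IL-3. Its log2 fold change was -0.46 (edgeR adjusted p 0.00966), and without PBS replicate 1, its highest library, the value was -0.36 and was not called. Tnfsf13 encodes APRIL, a survival factor of plasma cells, and went from 9.33, 10.5 and 5.64 CPM to 4.54, 3.91 and 4.96 CPM. Even the lowest PBS library stayed above the IL-3 libraries (log2 fold change -0.92, edgeR adjusted p 0.00366). Both genes share transcript sequence with the annotated read-through gene Tnfsfm13 on chromosome 11, to which 46.8% of the 50-mers of Tnfsf12 and 57.3% of those of Tnfsf13 chiefly led, so the split of reads between them is uncertain. Tnfsfm13, which the rule does not include, was itself lower, at 31.8 ± 3.45 and 22.3 ± 0.506 CPM (log2 fold change -0.52, edgeR adjusted p 0.000756). The antisense RNA Tnfsf13os had 20 counts in the PBS libraries (4, 12 and 4) and 4 in the IL-3 libraries (0, 3 and 1), so PBS replicate 2 held most of them. It was below the filter and was called lower when no filter was applied (edgeR adjusted p 0.0438). Its annotated exons overlap those of Tnfsf13 on the other strand over 221 bases, 19.9% of its own exon bases, and as use of strand in counting is not stated, reads from that stretch cannot be assigned to either gene.

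Ltb and Lta encode lymphotoxins, which shape lymphoid tissue, and lie beside Tnf on chromosome 17 (GRCm38, GENCODE M21), Lta 1157 bases and Ltb 3060 bases from it. Ltb had 3.03, 4.998 and 5.64 CPM in PBS and 2.07, 3.66 and 2.02 CPM in IL-3, and IL-3 replicate 2 lay above PBS replicate 1. Its fall of 0.80 on the log2 scale had an edgeR adjusted p of 0.0390 and was not called without PBS replicate 2 (-0.73), PBS replicate 3 (-0.62), IL-3 replicate 1 (-0.69) or IL-3 replicate 3 (-0.64), nor by the DESeq2 Wald test. Lta was below the filter, with 1, 0 and 3 counts in PBS and 10, 11 and 12 counts in IL-3. Every IL-3 library of Lta was above every PBS library, and it was called higher when no filter was applied (edgeR adjusted p 0.000356). It was also called in the 3 fits in which leaving out PBS replicate 2, PBS replicate 3 or IL-3 replicate 1 let it pass, but it passed there only through the IL-3 libraries, in which it was high, and those calls add no support. Tnfsf10, which encodes the death ligand TRAIL, had 1.88, 2.28 and 1.67 CPM in PBS and 2.37, 3.33 and 2.17 CPM in IL-3. Its groups overlapped, and its log2 fold change of 0.43 had a 95% interval of -0.16 to 1.02 (edgeR adjusted p 0.249).

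The other ligands were near the limit of detection. Fasl, the ligand of the death receptor Fas, had 6, 7 and 2 counts in PBS and 5, 1 and 4 counts in IL-3. Tnfsf8, Tnfsf11 and Tnfsf4, the ligands of CD30, RANK and OX40, had 13, 11 and 13 counts over all 6 libraries. Tnfsf13b, which encodes BAFF, and Tnfsf15, the ligand of death receptor 3, had 38 and 35 counts, with the groups of each overlapping. Tnfsf18, the ligand of GITR, had 2 counts, both in PBS replicate 3. Cd40lg had no count in any library. For these 8 ligands no difference was detectable at this depth. Tnfsf15 had 1, 4 and 5 counts in PBS and 11, 12 and 2 counts in IL-3 and was not called when no filter was applied (edgeR adjusted p 0.148). Without IL-3 replicate 3 it was called higher, but it then passed the filter only through the IL-3 libraries, in which it was high, so that this call is no support for a difference.

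The largest rises among receptors were those of Tnfrsf18 and Tnfrsf9, which encode GITR and CD137, costimulatory receptors known from activated and regulatory T cells. Tnfrsf18 (chromosome 4, 156026164 to 156028895) had 30.8, 32.5 and 31.7 CPM in PBS and 134, 130.9 and 143 CPM in IL-3. Its replicates were tightly grouped and the groups far apart, with a log2 fold change of 2.10 (SE 0.0667, edgeR adjusted p 6.87e-13). Tnfrsf9 (chromosome 4, 150914562 to 150946102) had 30.4, 30.4 and 31.8 CPM in PBS and 117, 96.6 and 106 CPM in IL-3. The lowest IL-3 library was still far above the highest PBS library (log2 fold change 1.78, SE 0.0791, edgeR adjusted p 4.28e-11). Tnfrsf4, the gene of OX40, lies 9551 bases from Tnfrsf18 and was measured at 1.23, 1.84 and 1.06 CPM in PBS and 2.07, 2.25 and 2.79 CPM in IL-3. All its IL-3 libraries were above its PBS libraries, but the log2 fold change of 0.79 (95% interval 0.14 to 1.44) was not called at an edgeR adjusted p of 0.0520. Over the alternatives its adjusted p ranged from 0.0281 to 0.577, and it was called by limma-voom and without PBS replicate 2 (1.05).

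**Figure D2:**
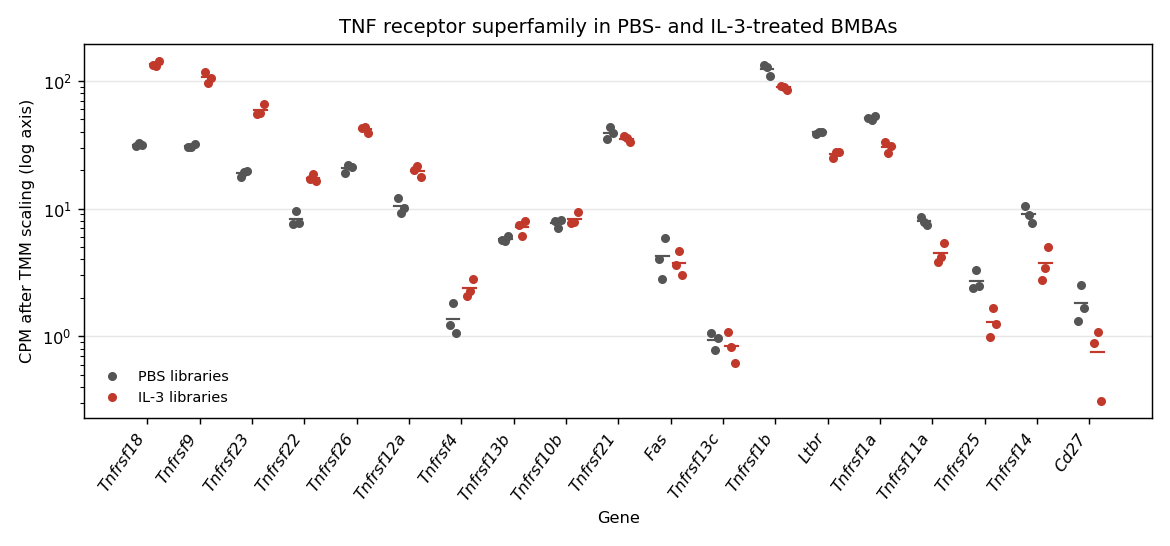
CPM after TMM scaling (log axis) of the 19 tested receptors in each library, ordered by log2 fold change, with grey points for PBS, red points for IL-3 and a line at each group's mean. Tnfrsf18 and Tnfrsf9 go from about the level of Ltbr to the top of the plot, where Tnfrsf1b stands in PBS.

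Neighbouring genes on chromosome 7, Tnfrsf22, Tnfrsf23 and Tnfrsf26, were all called higher. Tnfrsf22 and Tnfrsf23 encode mouse decoy receptors for TRAIL, and Tnfrsf26 encodes a related receptor. They lie in the order Tnfrsf26, Tnfrsf22, Tnfrsf23 with gaps of 6083 and 16147 bases. Tnfrsf23 had 17.8, 19.2 and 19.8 CPM in PBS and 55.2, 56.2 and 65.5 CPM in IL-3, a log2 fold change of 1.64 (edgeR adjusted p 9.66e-10). Tnfrsf22 had 7.53, 9.56 and 7.66 CPM in PBS and 17.1, 18.6 and 16.4 CPM in IL-3, with a log2 fold change of 1.07 (edgeR adjusted p 1.36e-05). Tnfrsf26 had 19.1, 21.8 and 21.2 CPM in PBS and 42.8, 43.7 and 39.0 CPM in IL-3, a log2 fold change of 1.02 (edgeR adjusted p 3.23e-07). The groups of all 3 genes were apart. Tnfrsf22 shared 27.4% of its 50-mers with other genes and Tnfrsf23 shared 18.0%, chiefly with each other, so that their separate levels are uncertain, whereas Tnfrsf26 shared none. The ratio of Tnfrsf23 to Tnfrsf26 counts within a library, which no scaling touches, was 0.915 ± 0.0306 in PBS and 1.42 ± 0.227 in IL-3, with no overlap.

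Tnfrsf12a also rose. It encodes Fn14, the receptor of TWEAK, and had 12.2, 9.29 and 10.0 CPM in PBS and 19.9, 21.7 and 17.7 CPM in IL-3. Its IL-3 libraries were all above its PBS libraries (log2 fold change 0.91, SE 0.137, edgeR adjusted p 7.04e-05).

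Both receptors of TNF itself fell. Tnfrsf1a encodes TNFR1, the death domain receptor found on most cells, and had 51.3, 49.3 and 52.9 CPM in PBS and 33.4, 27.3 and 30.9 CPM in IL-3. Its groups were apart, with a log2 fold change of -0.75 (SE 0.0871, edgeR adjusted p 4.58e-06). Tnfrsf1b encodes TNFR2, which lacks a death domain, and had 132, 129 and 109.6 CPM in PBS and 91.7, 88.9 and 85.5 CPM in IL-3. PBS replicate 3 was the nearest to the IL-3 libraries and still above them (log2 fold change -0.48, SE 0.0717, edgeR adjusted p 6.43e-05). Ltbr, the lymphotoxin beta receptor, had 38.4, 40.0 and 39.9 CPM in PBS and 25.1, 27.7 and 27.9 CPM in IL-3, again without overlap (log2 fold change -0.55, edgeR adjusted p 9.18e-05).

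Tnfrsf14, Tnfrsf11a and Tnfrsf25 were lower as well. Tnfrsf14 encodes HVEM, a receptor of LIGHT, and went from 10.5, 8.94 and 7.66 CPM in PBS to 2.76, 3.41 and 5.04 CPM in IL-3, the groups being apart (log2 fold change -1.25, SE 0.216, edgeR adjusted p 0.000247). Tnfrsf11a encodes RANK, known for its part in osteoclast formation, and went from 8.59, 7.80 and 7.40 CPM to 3.85, 4.16 and 5.43 CPM (log2 fold change -0.81, edgeR adjusted p 0.00230). Tnfrsf25 encodes death receptor 3 and had 2.37, 3.33 and 2.47 CPM in PBS and 0.987, 1.67 and 1.24 CPM in IL-3. Its log2 fold change of -1.05 (edgeR adjusted p 0.0114) was -0.88 and not called without PBS replicate 2. Cd27, a costimulatory receptor of lymphocytes, had 1.31, 2.54 and 1.67 CPM in PBS and 0.889, 1.08 and 0.310 CPM in IL-3. It passed the filter only because of the PBS libraries, in which it was high, so that its call (log2 fold change -1.28, SE 0.424, edgeR adjusted p 0.0255) is no support for a fall. It was not called without PBS replicate 2 (-0.98), without IL-3 replicate 3 (-0.88) or by the DESeq2 Wald test.

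**Figure D3:**
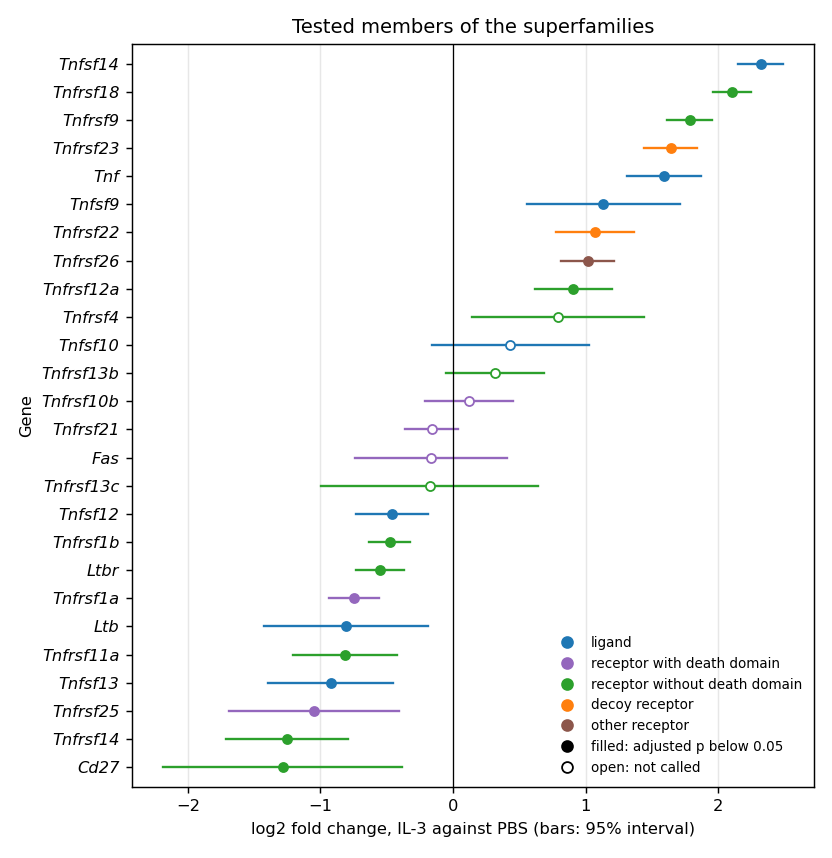
log2 fold change of IL-3 against PBS for the 26 tested members, with bars for the 95% interval, colours for the role and filled points for called genes. Tnfsf14 is at the top at 2.32 and Cd27 at the bottom at -1.28, and the 7 open points lie between -0.18 and 0.79.

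Death receptors other than Tnfrsf1a and Tnfrsf25 were not called. Fas, which triggers apoptosis when bound by Fas ligand, had 4.01, 2.81 and 5.90 CPM in PBS and 3.65, 4.66 and 3.02 CPM in IL-3. Its groups overlapped, with a log2 fold change of -0.17 and a 95% interval of -0.74 to 0.41 (edgeR adjusted p 0.676), and without PBS replicate 3 the value was 0.14. Tnfrsf10b, the mouse TRAIL receptor with a death domain, had 7.68 ± 0.587 CPM in PBS against 8.33 ± 0.983 CPM in IL-3, with an interval of -0.21 to 0.45 around 0.12. Tnfrsf21, which encodes death receptor 6, was at 39.2 ± 4.33 and 35.1 ± 1.94 CPM, with an interval of -0.36 to 0.04 around -0.16. Scaling by library totals, which moved the log2 values of all genes by -0.16 in the median, gave -0.044 for Tnfrsf10b and -0.32 for Tnfrsf21, the latter then called.

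The receptors of BAFF and APRIL, which sustain B cells and plasma cells, were not called either. Tnfrsf13b, which encodes TACI, had 5.64, 5.61 and 6.08 CPM in PBS and 7.40, 6.08 and 8.07 CPM in IL-3. Its IL-3 libraries were higher by a narrow margin (log2 fold change 0.31, 95% interval -0.05 to 0.68, edgeR adjusted p 0.172). Tnfrsf13c, the BAFF receptor gene, was at 0.941 ± 0.139 and 0.846 ± 0.233 CPM, with an interval of -0.99 to 0.64. Tnfrsf17 and Tnfrsf11b, the latter encoding the decoy osteoprotegerin, had no count in any library. Tnfrsf8, the CD30 gene, had 35 counts in all and Eda2r had 10, too few for the test.

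Levels of different genes were compared as CPM per kilobase of the longest annotated transcript, which remains approximate where shorter transcripts are in use. In PBS-treated BMBAs Tnfrsf1b led with 32.3 ± 3.17 CPM per kilobase, followed by Tnfrsf18 with 26.6 ± 0.745, Tnfrsf1a with 23.7 ± 0.832 and Ltbr with 18.7 ± 0.410. In IL-3-stimulated BMBAs Tnfrsf18 led with 114 ± 5.26 CPM per kilobase, followed by Tnfsf14 with 61.1 ± 2.42, Tnfrsf9 with 50.4 ± 4.85 and Tnfrsf1b with 23.2 ± 0.819. These steps exceeded the SDs of the neighbouring genes in both orders. Further down in IL-3, Tnfrsf12a at 20.1 ± 2.02 and Tnf at 19.7 ± 2.39 CPM per kilobase were closer than their SDs.

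Ligands and receptors that are known to bind each other were set side by side within each library, as a ratio of counts that does not depend on scaling. The pairs were chosen after the values had been seen, so the ratios are given without a test. In PBS replicates 1, 2 and 3 there were 1.97, 2.82 and 2.85 Tnfsf14 counts per Tnfrsf14 count, and in the IL-3 replicates 39.8, 34.5 and 21.9, a 12.4-fold higher ratio. Against its other receptor gene, Ltbr, Tnfsf14 went from 0.572 ± 0.0521 to 4.197 ± 0.225 counts per count. Tnf went from 0.208 ± 0.0242 to 1.07 ± 0.239 counts per Tnfrsf1a count and from 0.0878 ± 0.0219 to 0.363 ± 0.0444 counts per Tnfrsf1b count. For TWEAK and Fn14 the ratio of Tnfsf12 to Tnfrsf12a went the other way, from 1.67 ± 0.0922 to 0.651 ± 0.102. The groups of these 5 ratios did not overlap. For Tnfsf9 and Tnfrsf9, which both rose, the ratio was 0.0746 ± 0.0258 in PBS and 0.0480 ± 0.0108 in IL-3 with overlapping groups.

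**Figure D4:**
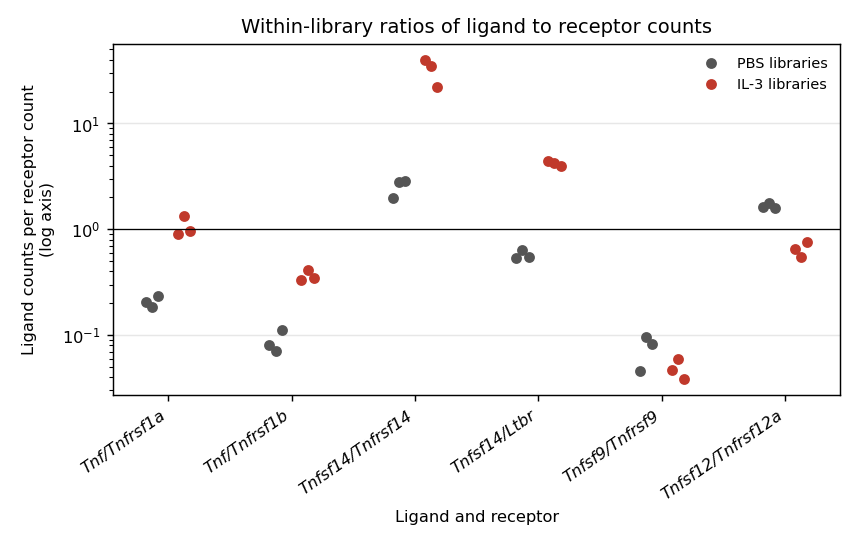
Counts of a ligand gene per count of a receptor gene within each library (log axis), with grey points for PBS, red points for IL-3 and a line at 1. The Tnfsf14 and Tnf ratios are higher in all IL-3 libraries, that of Tnfsf12 to Tnfrsf12a is lower, and that of Tnfsf9 to Tnfrsf9 overlaps between the groups.

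Genes that act downstream of TNF receptors, with some receptors and ligands that the naming rule leaves out, were taken from a list of 46 genes. Of the 42 that were tested, 15 were called higher and 8 lower, 54.8% beside 38.2% of all genes. The median log2 fold change was 0.16, and the median size was 0.26 beside 0.29 for all genes. Traf1, an adaptor that binds TNFR2 and is a known NF-kB target, had 2.78, 6.05 and 2.47 CPM in PBS and 16.1, 20.0 and 19.1 CPM in IL-3. PBS replicate 2 was the highest of its group but far below the IL-3 libraries (log2 fold change 2.29, SE 0.234, edgeR adjusted p 1.10e-06). Relt, a further TNF receptor family gene, had 10.2, 11.7 and 13.04 CPM in PBS and 32.9, 32.0 and 27.3 CPM in IL-3, its groups being apart (log2 fold change 1.40, edgeR adjusted p 1.83e-07). Tab2 and Tab3, whose products link ubiquitin chains to the kinase TAK1, rose by 0.66 and 0.63 on the log2 scale. Higher values were also called for Casp8, the initiator caspase of death receptors, at 0.57 and for its regulator Cflar at 0.31.

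None of the called falls on that list reached 2-fold. Mlkl, the executor of necroptosis, was at -0.65 on the log2 scale, and Map3k5, the kinase ASK1, was at -0.43. Tnfaip3 and Tnip1, which encode the NF-kB inhibitor A20 and its partner, went from 60.4 ± 3.60 to 45.4 ± 7.20 CPM and from 45.0 ± 4.21 to 34.8 ± 2.32 CPM, with log2 fold changes of -0.41 and -0.38 (edgeR adjusted p 0.00342 and 0.00352). Cd40, the costimulatory receptor, was measured at 5.76 ± 0.728 and 7.05 ± 0.860 CPM and was not called (log2 fold change 0.29, 95% interval -0.08 to 0.67, edgeR adjusted p 0.217). Ngfr and Eda were below the filter and Edar had no count. The number of lower calls on the list was 5 without IL-3 replicate 1 and 5 without IL-3 replicate 3. With library totals the list had 7 higher and 12 lower calls.

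**Figure D5:**
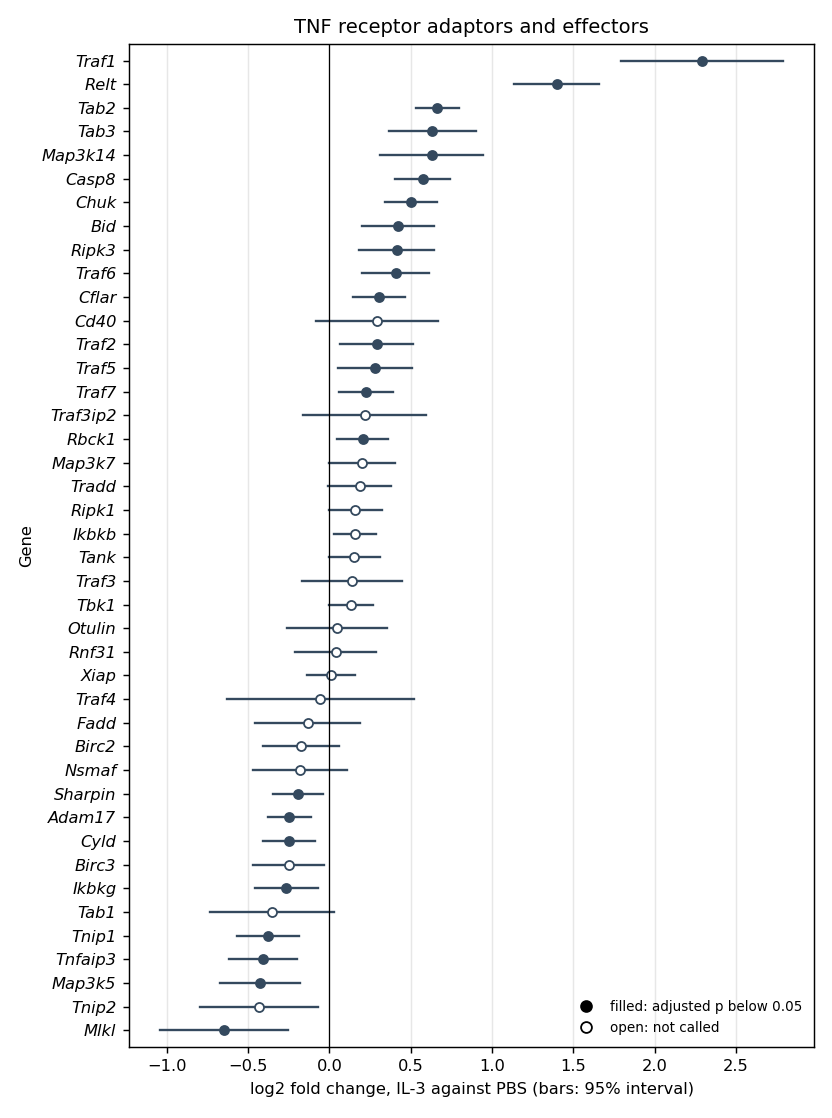
log2 fold change of IL-3 against PBS for the 42 tested adaptors, effectors and further receptors, with bars for the 95% interval and filled points for called genes. Traf1 and Relt stand apart on the right at 2.29 and 1.40, and the other genes lie between -0.65 and 0.66.

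Markers of other cells moved between the groups as well. The 10 markers of monocytes and macrophages, cells that are known to express Tnf, Tnfrsf1a and Tnfrsf1b, summed to 11840 to 12780 CPM in PBS and 6183 to 6817 CPM in IL-3, with 7 lower, 2 higher and none at 0, and Lyz2 alone made up 10456 CPM of the PBS mean and 5348 CPM of the IL-3 mean. The 7 mast cell markers summed to 879.5 to 1017 CPM and 1454 to 1584 CPM, with 4 higher, 1 lower and none at 0. The 6 B cell markers summed to 18.6 to 23.3 CPM and 9.33 to 15.3 CPM, with 2 lower and none at 0. The 8 T cell markers summed to 96.4 to 107.2 CPM and 105.5 to 113.6 CPM with none called or at 0, and Lat, which basophils and mast cells also express, made up 94.0 CPM of the PBS mean while Cd3e was at 0.63 CPM. The 6 NK cell markers summed to at most 2.28 CPM in any library, with Gzma at 0. Neutrophil markers (9 genes) summed to 113 to 156 CPM in PBS and 187 to 247 CPM in IL-3 with 3 higher and 1 lower, eosinophil markers (6 genes) to 154 to 170 CPM and 93.9 to 134.5 CPM with 1 higher and 3 lower, and dendritic cell markers (6 genes) to 86.0 to 90.6 CPM and 70.7 to 79.9 CPM with 1 lower. None of these 3 lists had a marker at 0. The part of such cells in the changes of the TNF family genes was not tested.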

How the data were processed

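Bulk RNA-seq of 6 libraries was analysed, 3 from PBS-treated and 3 from IL-3-stimulated BMBAs, grouped by sample title. The authors trimmed reads with Cutadapt 3.4, mapped them with Bowtie2 to mouse reference RNA and deposited raw read counts per gene symbol. Their methods name build GRCm38 and the submitters' processing notes name GRCm39, and the table holds symbols only. Coordinates, transcript lengths and 50-mers came from GENCODE M21 (GRCm38), in which all 40 members were found, and promoter windows from RefSeq (GRCm38.p6). No molecular identifiers are described, so PCR copies count as reads.

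Counts were filtered with filterByExpr, scaled by TMM and tested with the quasi-likelihood F test of edgeR 4.0.16 in R 4.3.3, with the group as the only term. P-values were two-sided and adjusted by Benjamini-Hochberg over all 16675 genes tested. SEs were derived from F values. CPM used TMM-scaled library sizes. The members and lists were chosen with earlier results of these data known. Values of every library were given for called members whose higher group averaged 1 CPM or more and for Tnf, Tnfrsf1a, Tnfrsf1b, Fas, Fasl and Ltbr, and of the list of adaptors the 4 largest rises and falls among called genes were named. Library values of Lta, Tnfrsf4, Tnfrsf13b and Tnfsf10, and the genes Casp8 and Cflar, were added after their values were seen. The fit was tested on simulated data. Alternatives were size factors of DESeq2 1.42.0, library totals, no filter, a minimum of 1 CPM in 3 libraries, the DESeq2 Wald test, limma-voom (limma 3.58.1), a replicate block, a test against a fold of 1.5 (glmTreat) and leaving out each library.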

Additional observations from a re-analysis of the deposited data

How the results depend on the processing

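Among the 19 called members, no direction turned under any alternative run. All 19 calls were kept with DESeq2 size factors, library totals, no filter, a minimum of 1 CPM in 3 libraries, limma-voom and the replicate block, 17 with the DESeq2 Wald test, and 16 to 19 on leaving out each library in turn. Higher member calls ranged from 9 to 11 and lower ones from 7 to 10 in the fits that left out a library, and lower ones were 11 with library totals, which added Tnfrsf21, and 11 with no filter, which added Tnfsf13os. Testing for changes beyond 1.5-fold, stricter by construction, left 8 higher members and 1 lower member, Tnfrsf14, without Tnfsf9, Tnfsf12, Tnfsf13, Ltb, Ltbr, Cd27, Tnfrsf1a, Tnfrsf1b, Tnfrsf11a and Tnfrsf25, 2 higher and 0 lower genes of the adaptor list, and 709 higher and 883 lower genes in all. Library totals gave 1698 higher genes in all and 7 on the adaptor list, which follows from the shift of all values, and 25.2% of calls were then higher against 47.1%. The adaptor list had 12 to 15 higher and 5 to 9 lower calls with a library left out, and all genes 2482 to 2787 higher and 2883 to 3108 lower ones. Members not called that changed sign were Tnfrsf10b (-0.044 with library totals), Fas (0.143 without PBS replicate 3, from -0.389 to 0.143 over the libraries left out) and Tnfrsf13c (0.0171 without IL-3 replicate 3, from -0.379 to 0.0171). Why single libraries decided calls was not tested. With the replicate block 9 members were higher and 10 lower. The labels do not say that the numbers pair cultures. Libraries sharing a number had deviations from the group mean with correlations of -0.029 to 0.00043 over all genes tested. Libraries with different numbers were not compared, so these values cannot decide whether cultures of one number shared a source. At this depth 14 of the 40 members were below the filter, 3 of them with no count.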
